A study of Mus musculus with 72 samples.

Results

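The promoter peaks of protein-coding genes in RAW264.7, a macrophage-like cell line of BALB/c mice, were examined in cells carrying short hairpin RNAs against 2 nuclear corepressors. Members were the ATAC-seq peaks off the mitochondrial chromosome that the authors' annotation places at a transcription start (promoter-TSS) of a gene of type protein-coding, and there were 8695 of them among 51984 peaks, at 8198 genes. The knockdown groups were cells infected with lentivirus carrying a hairpin against NCOR (shNCOR) or against SMRT (shSMRT), and the control was cells carrying a hairpin against GFP (shGFP). Each group had 3 ATAC-seq and 3 RNA-seq libraries, with no drug or ligand, all from the same cell line. The labels do not say that libraries came from separate infections or cultures. Each p-value thus rests on the spread among libraries within groups, 3 per group, possibly a technical one. The fits pool this spread over the 3 groups. Loss of a corepressor cannot be told apart from other differences between the infected populations.

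A promoter is the stretch of DNA around a transcription start where general factors and polymerase assemble. In mammalian cells most promoters of active genes are free of nucleosomes, so that the transposase used in ATAC-seq can cut them, whether or not the gene is strongly transcribed at that moment. NCOR and SMRT are large corepressors through which nuclear receptors and other factors recruit the deacetylase HDAC3, and in macrophages they are known for holding down inflammatory, lipid and interferon genes.

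The sequences below are of promoters, or of elements in them, at which accessibility differed from the control. They come from the RefSeq promoter windows of build GRCm38.p6 (mm10, the build of the files), which run from 250 bases before to 50 bases after a start site, and they are written 5′ to 3′ on the gene's strand. The first group holds 5 of the promoters with the largest differences, and capitals mark letters that match 1 of the 11 motifs searched on both strands. Rarb, which encodes a retinoic acid receptor, had the most raised promoter in shNCOR. Its capitals are the letters GTTCANNNNNNGTTCA, the direct repeat of a retinoic acid response element, a motif added after the Rarb values were seen. These letters were in 1 of the 6499 windows at tested promoter peaks, that of Rarb, and in 0.0761% of all 32851 windows in the table.
Rarb (chr14:16575427-16575726, minus strand): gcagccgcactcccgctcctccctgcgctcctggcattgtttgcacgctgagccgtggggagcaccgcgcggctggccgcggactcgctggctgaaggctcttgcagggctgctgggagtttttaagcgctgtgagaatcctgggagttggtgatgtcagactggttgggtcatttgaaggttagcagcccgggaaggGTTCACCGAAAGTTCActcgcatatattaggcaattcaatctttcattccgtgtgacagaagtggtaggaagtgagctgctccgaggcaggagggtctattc
Cbfa2t3 (chr8:122699060-122699359, minus strand): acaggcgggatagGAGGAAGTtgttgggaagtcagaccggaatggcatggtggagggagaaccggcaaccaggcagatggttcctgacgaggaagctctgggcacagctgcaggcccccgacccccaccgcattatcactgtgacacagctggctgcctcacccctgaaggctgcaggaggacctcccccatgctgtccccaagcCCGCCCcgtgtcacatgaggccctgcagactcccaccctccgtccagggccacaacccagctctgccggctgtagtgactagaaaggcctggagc
Tmem176b (chr6:48840939-48841238, minus strand): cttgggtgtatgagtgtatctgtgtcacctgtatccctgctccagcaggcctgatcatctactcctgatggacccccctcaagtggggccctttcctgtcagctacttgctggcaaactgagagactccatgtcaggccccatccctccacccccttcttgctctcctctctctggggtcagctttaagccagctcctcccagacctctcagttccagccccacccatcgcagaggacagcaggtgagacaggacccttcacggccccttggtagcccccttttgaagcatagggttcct
Lpar1 (chr4:58553244-58553543, minus strand): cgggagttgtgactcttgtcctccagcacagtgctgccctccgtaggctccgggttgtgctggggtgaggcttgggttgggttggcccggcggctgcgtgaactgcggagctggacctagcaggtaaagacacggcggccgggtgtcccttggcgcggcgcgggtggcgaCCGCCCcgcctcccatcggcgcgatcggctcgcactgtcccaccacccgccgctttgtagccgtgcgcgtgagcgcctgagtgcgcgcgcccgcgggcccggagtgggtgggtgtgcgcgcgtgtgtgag
Cmklr1 (chr5:113643554-113643853, minus strand): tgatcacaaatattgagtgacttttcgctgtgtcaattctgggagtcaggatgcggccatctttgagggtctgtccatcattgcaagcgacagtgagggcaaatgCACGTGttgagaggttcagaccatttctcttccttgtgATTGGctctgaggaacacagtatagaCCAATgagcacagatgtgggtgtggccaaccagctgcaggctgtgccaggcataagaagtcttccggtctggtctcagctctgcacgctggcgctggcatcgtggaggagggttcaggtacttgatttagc
The Cbfa2t3 promoter, of a corepressor gene of the ETO family, had the most lowered peak in shNCOR and holds the PU.1 letters GAGGAAGT once and the GC box GGGCGG once. The Tmem176b window, of a membrane protein gene of macrophages and dendritic cells, holds none of the motifs, and its peak was the most lowered in shSMRT. Lpar1 and Cmklr1 encode receptors for lysophosphatidic acid and for chemerin, and their promoters were the most raised in shSMRT. The Cmklr1 window holds the E-box CACGTG and 2 CCAAT boxes.

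The second group shows the interferon-stimulated response element, GAAANNGAAA, the letters bound by the interferon-activated factors of the IRF and STAT families. Capitals mark the match, in a stretch of 30 bases, in 8 of the promoters whose peaks were lower in shNCOR. These were taken for the match and not for the size of the difference, which ran from -1.73 at Calhm6 to -0.33 at Socs1 (log2 fold change). The match lies on the strand opposite to the gene where the capitals read TTTC.
Calhm6 (chr10:34128017-34128046, minus strand): tgaaaaaaaaGAAAGTGAAAcccggaaggg
Rsad2 (chr12:26456553-26456582, minus strand): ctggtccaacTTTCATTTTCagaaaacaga
Ifitm3 (chr7:141010723-141010752, minus strand): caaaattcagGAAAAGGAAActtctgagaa
Tnfsf13b (chr8:10006607-10006636, plus strand): tacaaaaactGAAAGTGAAAtgcggaaggc
Irgm1 (chr11:48871431-48871460, minus strand): cctgtttcaaGAAATAGAAAccgaaactga
Gbp7 (chr3:142530273-142530302, plus strand): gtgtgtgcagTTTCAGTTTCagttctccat
Trim30a (chr7:104465210-104465239, minus strand): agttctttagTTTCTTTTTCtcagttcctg
Socs1 (chr16:10785600-10785629, minus strand): agacttgccgGAAAGAGAAAccgaaagcgg
Of the 72 promoter windows at peaks called lower in shNCOR, 11 held this element (15.3%), against 186 of all 6499 windows at tested promoter peaks (2.86%) and 3.44% of all windows in the table. Those 11 lie at 10 genes, since Trim30a has 2 such peaks. At peaks called higher in shNCOR, 5 of 196 windows held it (2.55%). Windows were at hand for 59.5% of the peaks called lower in shNCOR and for 74.8% of all tested promoter peaks, below the minimum of 80% set for comparing base composition, so GC content and CpG classes were not compared.

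Accessibility is given as the number of reads in a peak per 10 M reads of the library (M, mega). Differences are log2 fold changes of that value plus 5, with the standard error (SE) of the limma fit over all 51469 peaks that passed a filter on low values, and a peak is called when its p adjusted by the Benjamini-Hochberg method over all of them is under 0.05. Of the 8695 members, 8683 passed the filter. RNA is given in RPKM, a read density per kilobase of exon that is also divided by library depth. The ATAC libraries held 6.06 to 10.84 M reads, so that 1 read was worth 0.922 to 1.65 units. The share of reads in peaks off chrM was 54.1 to 54.9% in shNCOR, 47.2 to 49.3% in shSMRT and 50.1 to 53.5% in shGFP, and any count of calls rests on how this difference is scaled. All 9 macrophage markers reached 1 RPKM, with a summed level of 9190 to 9520 RPKM in shNCOR, 11000 to 11600 in shSMRT and 7980 to 8210 in shGFP. Of these 9 genes, 6 had a promoter peak, so an expressed marker can lack one. None of the 7 lymphocyte, 5 fibroblast, 4 epithelial and 9 neutrophil and mast cell markers reached 1 RPKM, the summed level of each type lay between 0 and 0.211 RPKM in every library, and none of them had a promoter peak. S100a8, which the neutrophil gene list holds and this marker set does not, had one, with RNA of at most 0.488 RPKM in any library. Cd3d, Cd8a, Ms4a1, Col1a2, Col3a1, Dcn, Pdgfra, Epcam, Krt8, Mpo, Ly6g, Kit, Cpa3 and Ms4a2 were listed at 0 in all 9 libraries. In bulk samples, fewer cells with an open promoter and less opening per cell cannot be told apart.

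Promoter peaks were wider and stronger than the other peaks. Their median width was 575 bases, against 336 bases for other peaks off chrM, and their median level over the 9 libraries was 162 units, against 49.9. Their centres lay at a median of -42 bases from the start site, with quartiles at -138 and 25. Of the genes, 7734 had 1 promoter peak, 435 had 2 and 29 had 3 or more. Of the peaks, 7294 had been called in all 9 libraries and the fewest for any was 3. A start site of another gene lay within 1 kb of 1294 promoter peaks, on the other strand for 1189. The transcript in the authors' annotation belongs to a gene other than the named one at 720 of 8679 promoter peaks that could be looked up, so some of the values below describe a shared promoter. The strongest promoter was that of Sp1, which encodes a GC-box binding activator, at 1301, 1439 and 1258 units in shNCOR, 963, 1056 and 1101 in shSMRT and 1214, 1090 and 1113 in shGFP. The other 4 promoters of the highest mean belonged to Khsrp, Srgap2, Zfp687 and Sap130.

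Level of accessibility and level of RNA were loosely related. Across 8186 genes, taking the strongest promoter peak of each, the Spearman rho of the mean ATAC value with the mean RPKM was 0.35 in shNCOR, 0.32 in shSMRT and 0.33 in shGFP. Genes are not independent replicates, and the median peak width was 375 bases in the weakest of 4 equal groups of promoter peaks and 716 in the strongest, so these are descriptions. In the 2047 genes with the weakest promoters, the median RNA level in shGFP was 3.47 RPKM, with quartiles at 0.109 and 16.0. In the next 3 groups of that size, by rising promoter level, it was 12.7, 16.1 and 17.0 RPKM. A set of 131 promoter peaks belonged to genes listed at 0 RPKM in all 9 libraries.

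The promoters' part of all accessible signal was smaller in shSMRT. Of the signal in all listed peaks off chrM, promoter peaks held 34.4, 34.7 and 33.1% in shNCOR, 30.2, 31.6 and 31.6% in shSMRT and 34.1, 33.2 and 32.9% in shGFP. Every shSMRT library lay below every library of the other groups, while shNCOR and shGFP overlapped. The mean share was 31.1 ± 0.773% in shSMRT (SD, n = 3), against 33.4 ± 0.609% in shGFP, a difference of -2.25 percentage points (exact two-sided permutation test, p = 0.1, 0.15 adjusted over 3 comparisons). It was 34.1 ± 0.855% in shNCOR, a difference of 0.68 points from shGFP (exact permutation p = 0.3, adjusted 0.3). Between shSMRT and shNCOR it differed by -2.93 points (exact permutation p = 0.1, adjusted 0.15). With 3 libraries against 3 the exact permutation test cannot go below p = 0.1. This share does not depend on the scaling to all reads. In terms of the library's reads, promoter peaks took 18.1 to 19.1% in shNCOR, 14.3 to 15.6% in shSMRT and 16.6 to 18.2% in shGFP, and the other peaks 35.5 to 36.6%, 32.9 to 33.8% and 33.5 to 35.3% in the same order.

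**Figure D1:**
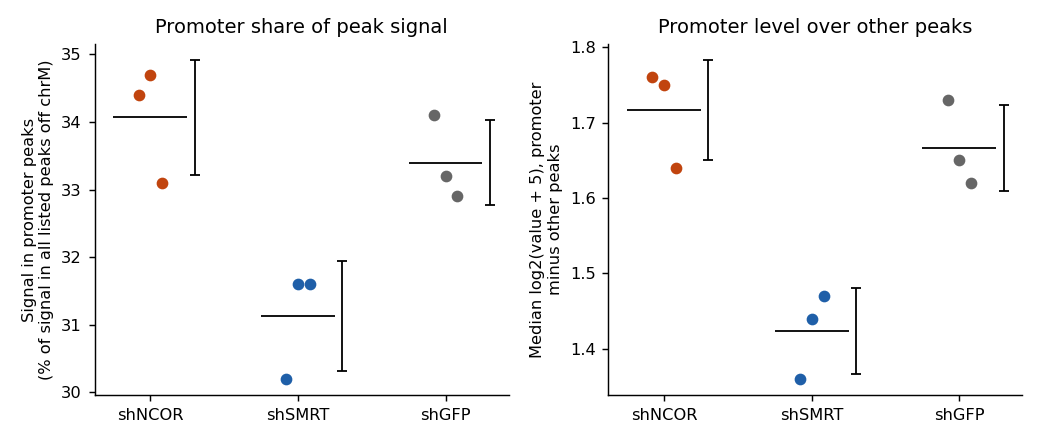
Left, the share of peak signal that lies in promoter peaks (percent, y axis) in each library of shNCOR, shSMRT and shGFP. Right, the difference between the median log2(value + 5) of promoter peaks and that of other peaks. Points are libraries, horizontal lines are means and the bars beside them are 1 SD (n = 3). The axes do not start at 0. The 3 shSMRT libraries lie lowest in both panels, at 30.2 to 31.6% and at 1.36 to 1.47.

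Comparison of shNCOR with shGFP asked which promoters open or close when NCOR is lowered. The RNA of Ncor1, the NCOR gene, was 3.61, 4.20 and 4.30 RPKM in shNCOR, against 18.4, 20.2 and 18.7 in shGFP, while its promoter peak at chr11:62456910-62457734 stood at 186, 158 and 159 units in shNCOR, against 154, 170 and 154 in shGFP (log2 fold change 0.07 ± 0.12, limma adjusted p = 0.797). A hairpin acts on the RNA, so the Ncor1 promoter does not check the ATAC labels. Of 8683 tested promoter peaks, 258 were higher in shNCOR (2.97%) and 121 were lower (1.39%), beside 4.58% higher and 4% lower over all 51469 tested peaks. The differences at promoters were mostly small. Only 13 of those called higher and 39 of those called lower differed by at least 1 on the log2 scale. The median log2 fold change of promoters was 0.08, and 0.03 for the other tested peaks.

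Which direction prevailed in shNCOR depended on scaling. Scaled to reads in peaks, 137 promoter peaks were higher and 173 lower, with a median of 0.02, and after quantile normalization 112 were higher and 148 lower, with a median of 0.00. The higher calls fell to 96 without shGFP replicate 2, 128 without shGFP replicate 3, 167 without shNCOR replicate 1 and 128 without shNCOR replicate 2. The lower calls fell to 69, 78 and 64 without shGFP replicate 1, 2 and 3. Differences of the named promoters are given at the deposited scaling, and those of small size can lose their call under the others.

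The promoters that opened most in shNCOR belonged to genes of varied function. Rarb stood at 183, 124 and 169 units in shNCOR, against 44.7, 33.8 and 24.0 in shGFP, a 4.23-fold difference on the scale of value plus 5 (log2 2.08 ± 0.22, limma adjusted p = 7.1e-10). Every shNCOR library lay above every shGFP library, and in shSMRT the same peak was at 47.9, 29.5 and 29.7 units (0.06 ± 0.22, adjusted p = 0.883 by limma). Its RNA was 10.5 ± 0.114 RPKM in shNCOR (SD, n = 3), against 0.689 ± 0.174 in shGFP. The promoter of Atp6v0d2, a subunit of the vacuolar proton pump made in osteoclasts, was at 106, 125 and 112 units in shNCOR, against 30.2, 30.9 and 36.0 in shGFP (1.67 ± 0.16, limma adjusted p = 7.42e-11). The peak at Opcml, which encodes a cell adhesion molecule, was at 50.2, 44.6 and 62.2 units in shNCOR, against 14.5, 15.9 and 16.6 in shGFP (1.46 ± 0.30, limma adjusted p = 0.000868). Thbd, the thrombomodulin gene, was at 128, 152 and 133 units in shNCOR, against 63.7, 63.8 and 54.4 in shGFP (1.12 ± 0.17). Its RNA, below the level tested, was 0.477, 0.481 and 0.532 RPKM in shNCOR, against 0.025, 0.083 and 0.123 in shGFP, without overlap.

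Other promoters among the 10 most raised were those of Cdk15 (1.55), Hspa1a, which encodes a heat-inducible chaperone (1.32), Tspan15 (1.20), Mlxipl, the gene of the glucose-sensing factor ChREBP (1.18), the T cell costimulator Cd28 (1.16) and the chemokine gene Ccl7 (1.15). RNA of Cdk15, Hspa1a, Tspan15 and Mlxipl was at most 0.138 RPKM in any group mean. Hspa1a has a near-identical neighbour and shares its promoter with Hspa1l, so its reads may be split. The calls of Tspan15, Cd28 and Ccl7 ended without shGFP replicate 2.

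Promoters that closed in shNCOR reached larger differences. Cbfa2t3 was at 13.2, 9.90 and 3.81 units in shNCOR, against 102, 88.1 and 123 in shGFP (-3.02 ± 0.29, limma adjusted p = 7.86e-11). The promoter shared by Tmem176b and Tmem176a was at 19.8, 9.90 and 15.2 units in shNCOR, against 113, 138 and 116 in shGFP (-2.70 ± 0.28, limma adjusted p = 5.63e-10). The groups do not overlap at either, and at the lowest of these values a library holds under 10 reads in the peak. Slc24a3, a sodium-calcium exchanger gene, was at 9.24, 4.95 and 5.07 units in shNCOR, against 58.1, 40.3 and 52.6 in shGFP (-2.28 ± 0.29, limma adjusted p = 1.64e-07), and its shSMRT libraries, at 45.1, 46.5 and 55.2, lay within the range of shGFP. Angptl2, which encodes a secreted angiopoietin-like protein, was at 54.1, 46.2 and 43.1 units in shNCOR, against 182, 187 and 177 in shGFP (-1.83 ± 0.14, limma adjusted p = 1.76e-14).

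The rest of the 10 most lowered in shNCOR were Rcsd1 (-1.94), Slc14a1 (-1.90), the ankyrin gene Ank2 (-1.83), Calhm6 (-1.73), the ubiquitin ligase gene Marchf1 (-1.72) and Tmem246 (-1.71). Calhm6, an interferon-inducible membrane channel gene, was at 22.4, 39.6 and 43.1 units in shNCOR, against 105, 132 and 138 in shGFP. Among the 25 tested promoter peaks of inflammatory genes, the cytokine gene Tnf fell to 219, 185 and 223 units in shNCOR, against 362, 289 and 320 in shGFP (-0.62 ± 0.10, limma adjusted p = 4.01e-05), and the chemokine gene Ccl4 to 137, 92.4 and 117 units in shNCOR, against 219, 198 and 192 in shGFP (-0.80 ± 0.13, adjusted p = 3.63e-05 by limma). Both peaks were also called lower in shSMRT against shGFP (limma, Tnf -0.41 ± 0.10 with adjusted p = 0.00366, Ccl4 -1.04 ± 0.13 with adjusted p = 1.03e-07). Neither differed by the test between shSMRT and shNCOR (limma adjusted p = 0.153 and 0.191).

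**Figure D2:**
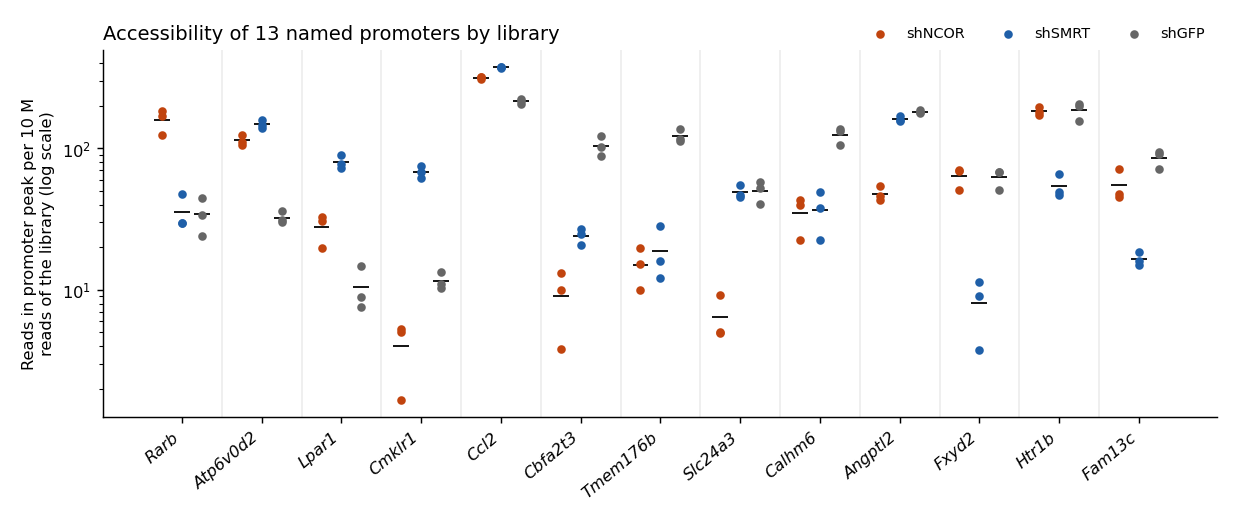
Reads in the promoter peak per 10 M reads of the library (log scale, y axis) for 13 promoters named in the text. Points are libraries of shNCOR, shSMRT and shGFP, from left to right within each gene, and black lines are group means (n = 3). Rarb stands apart in shNCOR, Fxyd2, Htr1b and Fam13c are lowest in shSMRT, and Atp6v0d2, Tmem176b and Calhm6 lie apart from shGFP in both knockdowns.

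Comparison of shSMRT with shGFP asked the same of SMRT. Here 125 of 8683 promoter peaks were higher (1.44%) and 1993 lower (23%), beside 6.81% higher and 10.9% lower over all tested peaks. The other tested peaks gave 7.9% higher and 8.42% lower. The median log2 fold change of promoters was -0.20, against -0.05 for the other peaks. Most of the lower calls were small, as 438 of the 1993 differed by at least 0.5 and 37 by at least 1 on the log2 scale, while 47 of the 125 higher calls differed by at least 1. Scaled to reads in peaks, 177 promoter peaks were higher and 783 lower, the promoter median was -0.10 and that of other peaks 0.04. After quantile normalization the counts were 226 and 688, with medians of -0.07 for promoters and -0.01 for other peaks. The lower calls fell to 767 without shGFP replicate 1, 1110 without shGFP replicate 3 and 1096 without shSMRT replicate 1, and the higher calls to 81 without shGFP replicate 1. Under all 3 scalings the median of promoters lay below that of other peaks.

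**Figure D3:**
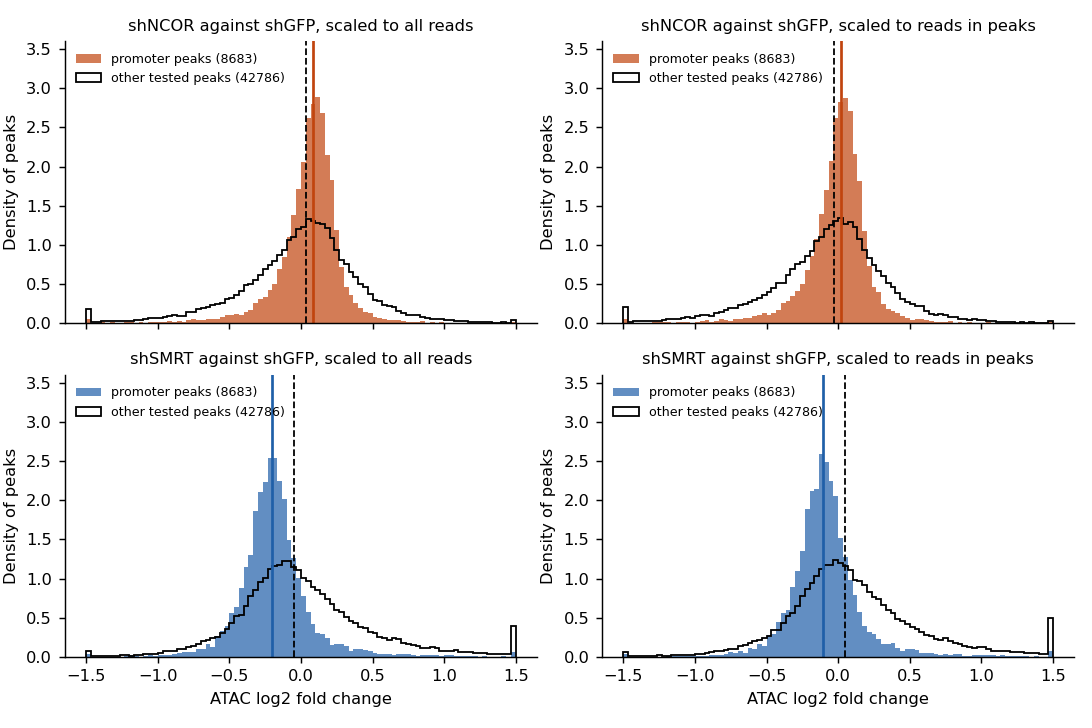
Density of peaks (y axis) by ATAC log2 fold change (x axis) for shNCOR against shGFP (top) and shSMRT against shGFP (bottom), scaled to all reads as deposited (left) and to reads in peaks (right). Filled bars are the 8683 tested promoter peaks, outlines the other tested peaks, and solid and dashed vertical lines their medians. Values beyond 1.5 are gathered at the ends. Promoters form the narrower distribution in all 4 panels, and in shSMRT their median lies left of that of other peaks at both scalings.

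A small set of promoters opened strongly in shSMRT. Of those named here, the peaks of Cmklr1, Phc2, Chn1 and Klrb1a had been called in 3 of the 9 libraries, and those of Lpar1 and Tll2 in 4. Peaks called in 3 to 8 libraries made up 67 of the 125 higher calls. Such a peak can be listed only through the group where it is high. Lpar1 was at 77.9, 89.6 and 72.2 units in shSMRT, against 8.95, 7.50 and 14.8 in shGFP (2.49 ± 0.29, limma adjusted p = 6.46e-09), and its RNA was 1.36 ± 0.0668 RPKM in shSMRT, against 0.048 ± 0.0231 in shGFP. Cmklr1 was at 62.0, 74.9 and 67.9 units in shSMRT, against 13.4, 10.3 and 11.1 in shGFP (2.14 ± 0.35, limma adjusted p = 1.2e-05), with RNA at 0.0867 RPKM in shSMRT and 0 in shGFP. Atp6v0d2 was at 160, 141 and 146 units in shSMRT (2.04 ± 0.16, limma adjusted p = 1.38e-13 against shGFP). Its RNA was 47.2 ± 1.56 RPKM in shSMRT, against 3.39 ± 0.351 in shGFP. Hspa1a (2.12), the protease gene Tll2 (1.91), the Polycomb gene Phc2 (1.86), Chn1 (1.84), Ccl7 (1.75), Pbx4 (1.68) and Klrb1a (1.65) complete the 10 most raised. Phc2 RNA stood at 35.5 RPKM in shSMRT and 41.3 in shGFP, so the raised peak, weak at a mean of 38.8 units in shSMRT and 6.68 in shGFP, moved apart from the gene's RNA.

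Other promoters of macrophage genes rose in shSMRT by less. Ccl2, which encodes the monocyte-attracting chemokine, was at 373, 377 and 375 units in shSMRT, against 207, 217 and 222 in shGFP (0.78 ± 0.09, limma adjusted p = 6.74e-09). Its promoter stood at 311, 319 and 318 units in shNCOR, also above every shGFP library. Arl4c, a known target of the liver X receptor, was at 102, 118 and 97.6 units in shSMRT, against 66.0, 48.8 and 52.6 in shGFP (0.88 ± 0.18, limma adjusted p = 0.000542).

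Several of the largest losses in shSMRT were at promoters that differed much less in shNCOR. Fxyd2, which encodes a regulator of the sodium pump, was at 3.76, 9.07 and 11.3 units in shSMRT, against 68.2, 68.4 and 50.7 in shGFP (-2.41 ± 0.27, limma adjusted p = 4.97e-09), and at 70.0, 51.2 and 69.8 in shNCOR. A second, stronger promoter peak of Fxyd2 did not pass the test (-0.20 ± 0.09, limma adjusted p = 0.119). The RNA of Fxyd2 was 352 ± 24.1 RPKM in shSMRT, against 479 ± 50.2 in shGFP. Htr1b, a serotonin receptor gene, was at 65.7, 46.5 and 49.5 units in shSMRT, against 158, 199 and 207 in shGFP (-1.72 ± 0.14, limma adjusted p = 2.34e-13), and its RNA was 7.76 ± 0.269 RPKM in shSMRT, against 18.2 ± 0.55 in shGFP. Fam13c was at 15.0, 15.9 and 18.4 units in shSMRT, against 91.7, 94.7 and 71.9 in shGFP (-2.08 ± 0.24, limma adjusted p = 4.12e-09).

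Some of the other large losses in shSMRT were at promoters also lowered in shNCOR. Tmem176b was at 12.2, 15.9 and 28.3 units in shSMRT (-2.47 ± 0.28 against shGFP) and Calhm6 at -1.69 ± 0.23, and their differences between shSMRT and shNCOR, 0.23 ± 0.28 and 0.04 ± 0.23, did not pass the test (limma adjusted p = 0.598 and 0.918). Cbfa2t3 was lowered by less in shSMRT (-1.90 ± 0.29) than in shNCOR, with a direct difference of 1.12 ± 0.29 (limma adjusted p = 0.00352). Since both knockdowns were set against the same shGFP libraries, their differences are not independent. Mst1 (-2.18), the stanniocalcin gene Stc2 (-1.94), Aldh1l1 (-1.79) and Arhgef10l (-1.71) complete the 10 most lowered. Of these, Aldh1l1 was not called in shNCOR (-0.88 ± 0.32, limma adjusted p = 0.0728). Scd1, the stearoyl-CoA desaturase gene of fatty acid synthesis, was at 96.7, 97.6 and 60.8 units in shSMRT, against 182, 175 and 220 in shGFP (-1.16 ± 0.14, limma adjusted p = 1.68e-08), with RNA at 19.1 ± 0.627 RPKM in shSMRT and 59.8 ± 1.24 in shGFP. Its promoter was not called in shNCOR, at 202, 200 and 161 units (-0.04 ± 0.14, limma adjusted p = 0.91).

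Set directly against each other, shSMRT and shNCOR differed at more promoters than either did from shGFP at the deposited scaling. This did not hold after quantile normalization or with limma voom on recovered reads. In shSMRT against shNCOR, 135 promoter peaks were higher (1.55%) and 3891 lower (44.8%), beside 6.93% higher and 17.5% lower over all tested peaks. These counts rest on scaling even more, with 207 higher and 1010 lower at reads in peaks and 193 and 469 after quantile normalization, and the higher calls fell to 88 without shSMRT replicate 1. The most raised in shSMRT relative to shNCOR was Cmklr1 (3.05 ± 0.35, limma adjusted p = 6.21e-09), at 5.28, 1.65 and 5.07 units in shNCOR. Next came the transcriptional coregulator gene Mn1 (2.59 ± 0.37), Chst7 (2.51 ± 0.29), which encodes a sulfotransferase of proteoglycan chains, Chsy3 and Ptpn13. Chst7 stood at 104, 68.1 and 77.8 units in shSMRT and 10.6, 13.2 and 7.61 in shNCOR, with shGFP between them at 22.4, 49.7 and 29.5. It passed the test in opposite directions against shGFP (limma, 1.23 in shSMRT with adjusted p = 0.00169 and -1.28 in shNCOR with adjusted p = 0.00183). The most lowered were Fxyd2 (-2.43), Rarb (-2.02), Htr1b (-1.69), the muscle kinase gene Speg (-1.57) and Fam13c (-1.46).

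Strong and weak promoters differed in how they moved. Split by mean level into 4 groups of equal size, the strongest group had 5.34% of its peaks higher in shNCOR and 0.0921% lower, against 1.7% and 3.45% in the weakest. In shSMRT the strongest group had 0.507% higher and 33.5% lower, and the weakest 3.96% and 8.8%. The SD of the log2 fold changes was 0.39 in shNCOR and 0.45 in shSMRT in the weakest group and 0.09 and 0.12 in the strongest, so a small difference passes the test more easily at a strong promoter. At matched levels, 100 to 200 units, the SD was 0.18 for 2698 promoter peaks and 0.28 for 7159 other peaks in shNCOR, and 0.20 and 0.30 in shSMRT. The medians there were 0.06 and 0.07 in shNCOR, and -0.22 for promoters and -0.11 for other peaks in shSMRT. Of the 1393 promoter peaks called in 3 to 8 libraries, 1.79% were higher and 4.02% lower in shNCOR. For the 7290 called in all 9 these were 3.2% and 0.892%. In shSMRT the shares were 4.81% and 8.47%, against 0.796% and 25.7%. Promoters of genes below the RNA filter had a higher share of raised peaks in shSMRT (5.99% of 1101, against 0.778% of 7582 with the gene tested in RNA) and lower levels (median 56.4 units, against 178). Of 1189 peaks with a start on the other strand within 1 kb, 4 were lower in shNCOR (0.336%), against 1.56% of 7390 with no other start near. In shSMRT 27% of the first and 22.3% of the second were lower. The first were also stronger, with a median of 207 units against 155. These are descriptions with no test.

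Several promoter peaks of 1 gene could be compared. Of 463 genes with more than 1 tested promoter peak, 57 had a called one in shNCOR, of which 5 had at least 2 called in the same direction and 0 in both directions. In shSMRT the counts were 176, 14 and 3. Mx2, an interferon-induced GTPase gene, was one in which both fell in shNCOR, the second to 92.4, 85.8 and 45.7 units, against 170, 117 and 162 in shGFP. Gpnmb, a glycoprotein gene of lipid-laden macrophages and osteoclasts, was one in which both rose (0.87 ± 0.12 and 0.89 ± 0.21). Other peaks assigned to the same gene by the nearest start site were also counted. Of 190 genes with a raised promoter in shNCOR and tested peaks elsewhere, 68 had another peak called higher (35.8%), against 13.9% of 5698 such genes with any tested promoter, and of 93 with a lowered promoter 32 had another called lower (34.4%, against 10.9%). In shSMRT these were 48 of 99 for raised promoters (48.5%, against 18.3%) and 341 of 1402 for lowered ones (24.3%, against 20.2%). Genes with more peaks have more chances of a called one, so the shares are descriptions.

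RNA of the same genes was then set beside the promoters, with the strongest promoter peak of each of 7124 genes that were tested in both assays. Of all 10789 genes tested in RNA, 17.6% were higher and 20% lower in shNCOR, and 24.4% higher and 31.4% lower in shSMRT. In shNCOR most genes called in both assays moved the same way. Of 209 genes with a raised promoter, 104 had higher RNA (49.8%) and 23 lower (11%). Of 67 with a lowered promoter, 55 had lower RNA (82.1%) and 0 higher. Of 6848 genes with no call at the promoter, 18.1% had higher RNA and 21% lower. The ATAC and RNA log2 fold changes correlated with Pearson's r 0.44 and Spearman's rho 0.22 across genes, which are not independent replicates and share the infected populations.

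In shSMRT the picture was split by direction. Of 47 genes with a raised promoter, 38 had higher RNA (80.9%) and 3 lower. Of 1816 with a lowered promoter, 746 had lower RNA (41.1%) and 324 higher (17.8%), beside 30.5% lower and 27.4% higher among 5261 genes with no promoter call. Across genes, r was 0.34 and rho 0.21. In all, 159 genes in shNCOR and 784 in shSMRT were called the same way in both assays, and 23 and 327 in opposite ways. Scaled to reads in peaks, 352 genes in shSMRT went the same way and 120 opposite, and in shNCOR 12 went opposite. Same-direction genes in shNCOR fell to 76, 89 and 99 without the ATAC library shGFP replicate 2, shGFP replicate 3 and shNCOR replicate 2, and opposite ones to 5, 10 and 10, and to 14 without shNCOR replicate 1. In shSMRT, leaving out the ATAC library shGFP replicate 1, shGFP replicate 3 or shSMRT replicate 1 gave 317, 449 and 453 in the same and 128, 172 and 163 in opposite directions.

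**Figure D4:**
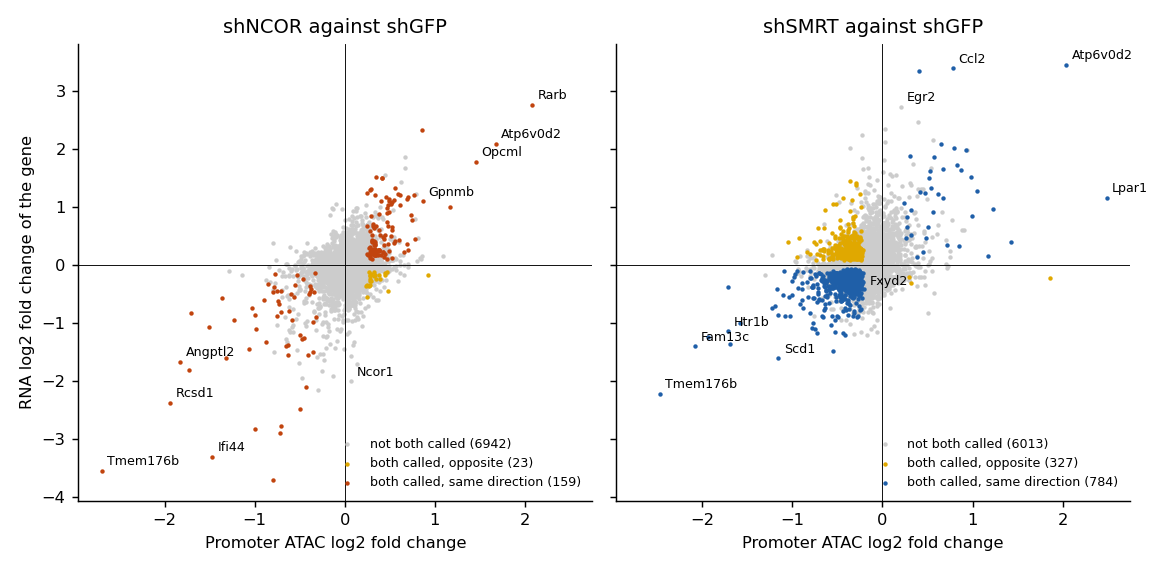
Promoter ATAC log2 fold change (x axis) against RNA log2 fold change (y axis) for 7124 genes, in shNCOR (left) and shSMRT (right) against shGFP. Each point is a gene with its strongest promoter peak, coloured when both assays were called, and some genes are named. Rarb and Tmem176b lie at the ends of the same-direction group in shNCOR, Atp6v0d2 and Tmem176b in shSMRT.

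The genes that led both assays were few. In shNCOR, Rarb, Atp6v0d2, Opcml, Cd28 and Gpnmb rose most in both. Gpnmb was at 265, 266 and 246 units at its stronger promoter peak in shNCOR, against 148, 142 and 131 in shGFP, with RNA at 518 ± 1.14 RPKM in shNCOR and 240 ± 2.3 in shGFP. In shSMRT this Gpnmb peak was lower (-0.38 ± 0.12, limma adjusted p = 0.0178) while the RNA was higher, at 367 ± 5.48 RPKM. The call at this peak ended at both other scalings (limma, -0.28 with adjusted p = 0.0852 at reads in peaks and -0.28 with adjusted p = 0.0923 after quantile normalization). Tmem176b, Rcsd1, Calhm6, Angptl2 and Ifi44, an interferon-induced gene, fell most in both. Tmem176b RNA was 5.89 ± 0.382 RPKM in shNCOR, against 79.0 ± 2.86 in shGFP. Angptl2 RNA was 2.20 ± 0.132 RPKM in shNCOR and 9.14 ± 0.906 in shGFP, but 31.4 ± 1.17 in shSMRT, where its promoter stood at 171, 158 and 157 units and did not pass the test (-0.16 ± 0.14, limma adjusted p = 0.436). In shSMRT, Atp6v0d2, Lpar1, Olr1, which encodes an oxidised LDL receptor, B3galnt1 and Chst7 rose most in both, and Tmem176b, Fam13c, Calhm6, Stc2 and Scd1 fell most in both.

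Large changes in RNA occurred with and without a called promoter. In shNCOR, 36 genes with a promoter peak had RNA higher by at least 1 on the log2 scale, and 28 of these had a raised promoter. Of 69 whose RNA was lower by at least 1, 24 had a lowered promoter and 0 a raised one. In shSMRT, 22 of 96 genes with such higher RNA had a raised promoter and 9 a lowered one, and 14 of 21 with such lower RNA had a lowered one. Over all 7124 genes tested in both assays, 209 had a raised promoter and 67 a lowered one in shNCOR. In shSMRT these counts were 47 and 1816. Genes with a large RNA difference and no promoter call are named here after their values were seen. The lectin gene Lgals9 was at 3.97 ± 0.36 RPKM in shNCOR, against 21.1 ± 0.139 in shGFP, with its promoter at 209, 215 and 178 units in shNCOR and 247, 248 and 246 in shGFP (-0.30 ± 0.10, limma adjusted p = 0.0516). The groups do not overlap at this promoter, and it was called lower at both other scalings (limma, -0.37 with adjusted p = 0.0102 at reads in peaks and -0.38 with adjusted p = 0.00589 after quantile normalization). The immediate-early gene Egr2 was at 14.8 ± 0.896 RPKM in shSMRT, against 1.38 ± 0.104 in shGFP, with its promoter at 119, 130 and 137 units in shSMRT and 104, 113 and 115 in shGFP (0.21 ± 0.13, limma adjusted p = 0.269).

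Genes called in opposite directions were ranked by the smaller of their promoter and RNA differences. The 5 leading ones in shNCOR, Tcf12, Tshz1, Iffo2, Eif2b4 and Etnk1, had promoter log2 fold changes of 0.27 to 0.48 and RNA changes of -0.45 to -0.26, and all 5 calls at the promoter ended under at least 5 alternatives, among them both other scalings. In shSMRT the leading ones were Agap1, Il4i1, Plxna3, Prnp and Itm2b. The promoter calls ended under 6 alternatives for Itm2b, among them both other scalings, under 3 for Il4i1, among them reads in peaks, and under 1 for Prnp. Agap1, a regulator of membrane traffic, was at 108, 118 and 178 units in shSMRT, against 215, 187 and 184 in shGFP (-0.55 ± 0.13, limma adjusted p = 0.00183), with RNA at 6.33 ± 0.23 RPKM in shSMRT and 2.52 ± 0.0132 in shGFP. Prnp, the prion protein gene, was at -0.65 in its promoter and 0.64 in RNA.

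By gene group, the promoters of interferon-stimulated genes stood apart from the median of promoters in shNCOR. Of 27 tested promoter peaks at 23 of the 35 listed genes, 0 were higher and 11 lower, and their log2 fold changes had a median of -0.48, beside a median of 0.08 and 1.39% lower among all promoters. Among them Mx2 was at 29.0, 34.7 and 36.8 units at its stronger-moving peak in shNCOR, against 127, 126 and 98.7 in shGFP (-1.66 ± 0.19, limma adjusted p = 4.86e-09), and the antiviral gene Rsad2 was at 18.5, 14.9 and 8.88 units, against 57.0, 45.9 and 42.4 in shGFP (-1.51 ± 0.29, limma adjusted p = 0.000271). RNA of 20 of the 21 genes of this list tested in both assays was lower in shNCOR, beside 20% of all tested genes, with a median of -1.18. Dhx58, a cytosolic RNA sensor, had RNA at -1.70 and its promoter at 0.14 ± 0.12 (limma adjusted p = 0.532). In shSMRT, 0 of the 27 were higher and 10 lower, beside 1.44% higher and 23% lower among all promoters. Their median was -0.33, beside -0.20 for all promoters. Scaled to reads in peaks 5 were lower, beside 9.02% of all promoters, with a median of -0.23, beside -0.10.

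Lipid and stress genes had lowered promoters in shSMRT. Of 16 tested cholesterol synthesis promoters, 10 were lower and 0 higher, with a median of -0.30. Pmvk, a kinase of the mevalonate pathway, was at 62.0, 54.5 and 59.4 units in shSMRT, against 85.0, 105 and 110 in shGFP (-0.72 ± 0.16, limma adjusted p = 0.00134). Of 16 promoters of the integrated stress and unfolded protein response, 12 were lower and 0 higher, with a median of -0.32. Gars, a tRNA synthetase gene, was at 93.0, 97.6 and 105 units in shSMRT, against 167, 158 and 153 in shGFP (-0.67 ± 0.13, limma adjusted p = 0.00016), and Phgdh, of serine synthesis, at -0.56 ± 0.13. Of 10 fatty acid synthesis promoters, 5 were lower. These shares stand beside 23% lower among all promoters in shSMRT, and scaled to reads in peaks the lower counts were 6 of 16, 5 of 16 and 5 of 10, beside 9.02% of all promoters at that scaling. In shNCOR none of these 3 lists had a called promoter, with medians of 0.11, 0.06 and 0.11.

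Proliferation, respiratory chain and ribosomal protein promoters followed the median of all promoters. In shSMRT, 6 of 21, 3 of 17 and 6 of 16 were lower, beside 23% of all promoters, with medians of -0.23, -0.24 and -0.25, and in shNCOR none of the 3 lists had a called promoter. Replication-dependent histone promoters were lower in 3 of 6 in shSMRT (median -0.28), while the RNA of the 3 of these genes tested in both assays was higher, with a median of 1.45. Hist1h2bc had its promoter at -0.37 ± 0.08 and RNA at 12.3 RPKM in shSMRT, against 3.87 in shGFP. Histone genes have near-identical copies, so their values are uncertain. MHC class I promoters had 2 of 12 lower in shSMRT, Psme1 and Tapbp, and both calls ended under at least 8 alternatives.

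Macrophage and osteoclast promoters lay above the median of promoters in both knockdowns. Of 17 macrophage identity promoter peaks, 2 were higher and 0 lower in each, beside 2.97% higher among all promoters in shNCOR and 1.44% higher and 23% lower in shSMRT, with medians of 0.20 in shNCOR and -0.05 in shSMRT, the second turning to 0.04 when scaled to reads in peaks. One of the raised peaks, at the lineage factor gene Cebpa, was at 437, 505 and 481 units in shNCOR and 431, 442 and 467 in shSMRT, against 389, 368 and 375 in shGFP. Its call ended under 1 alternative in shNCOR and 6 in shSMRT. Of 9 osteoclast promoter peaks, 3 were higher in shNCOR, at Atp6v0d2 and both peaks of Tcirg1, and 1 in shSMRT. Lysosomal promoters had 2 of 25 higher in shNCOR, Atp6v0d2 and Atp6v1a, beside 2.97% of all promoters, and the RNA of 15 of the 20 genes was higher, beside 17.6% of all tested genes. The Atp6v1a call ended under 7 alternatives. In shSMRT 1 was higher and 3 lower, beside 23% lower among all promoters, with RNA higher for 16 of 20, beside 24.4% of all tested genes.

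Nuclear receptor target promoters held called members in both directions in shSMRT. Of 13 tested promoter peaks of liver X receptor targets, 1 was higher in shNCOR, at Abca1, the cholesterol exporter gene, at 180, 163 and 155 units in shNCOR, against 105, 107 and 113 in shGFP (0.59 ± 0.13, limma adjusted p = 0.0013). In shSMRT, 1 was higher, at Arl4c, and 5 were lower, among them Scd1 and Lpcat3, beside 23% lower among all promoters. Of 13 PPAR target promoters, 0 were called in shNCOR, and in shSMRT 1 was higher and 3 were lower, also at reads in peaks. Among the lower ones were the fatty acid binding protein gene Fabp5 (-0.53 ± 0.13, limma adjusted p = 0.00248) and Acaa2, of fatty acid oxidation (-0.45 ± 0.09, limma adjusted p = 0.000596). Cd36, a fatty acid and lipoprotein receptor gene, was higher at 90.1, 87.4 and 84.9 units in shSMRT, against 72.7, 45.0 and 57.2 in shGFP (0.57 ± 0.19, limma adjusted p = 0.0292), a call that ended when any of 5 libraries was left out. Its RNA was 173 ± 1.7 RPKM in shSMRT and 46.7 ± 2.5 in shGFP. In the corepressor complex, Coro2a had a raised promoter in shNCOR (0.48 ± 0.16, limma adjusted p = 0.0463), a call that ended under 9 alternatives, and Tbl1x a lowered one in shSMRT (-0.43 ± 0.12, limma adjusted p = 0.00751), which ended under 2. Inflammatory promoters had 1 of 25 higher and 3 lower in shNCOR, beside 2.97% and 1.39% of all promoters. In shSMRT 1 was higher and 7 lower, near the 23% lower among all promoters. RNA was higher in shSMRT for 15 of 21 of these genes, beside 24.4% of all tested genes. Antioxidant promoters had 1 of 11 higher in shNCOR, at Fth1, and 1 higher and 1 lower in shSMRT, and the Fth1 calls ended under 8 and 6 alternatives. S100a8, of the neutrophil list, had a raised promoter in both (0.43 in each) and RNA of at most 0.449 RPKM in any group mean, and its call ended under 7 and 3 alternatives.

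**Figure D5:**
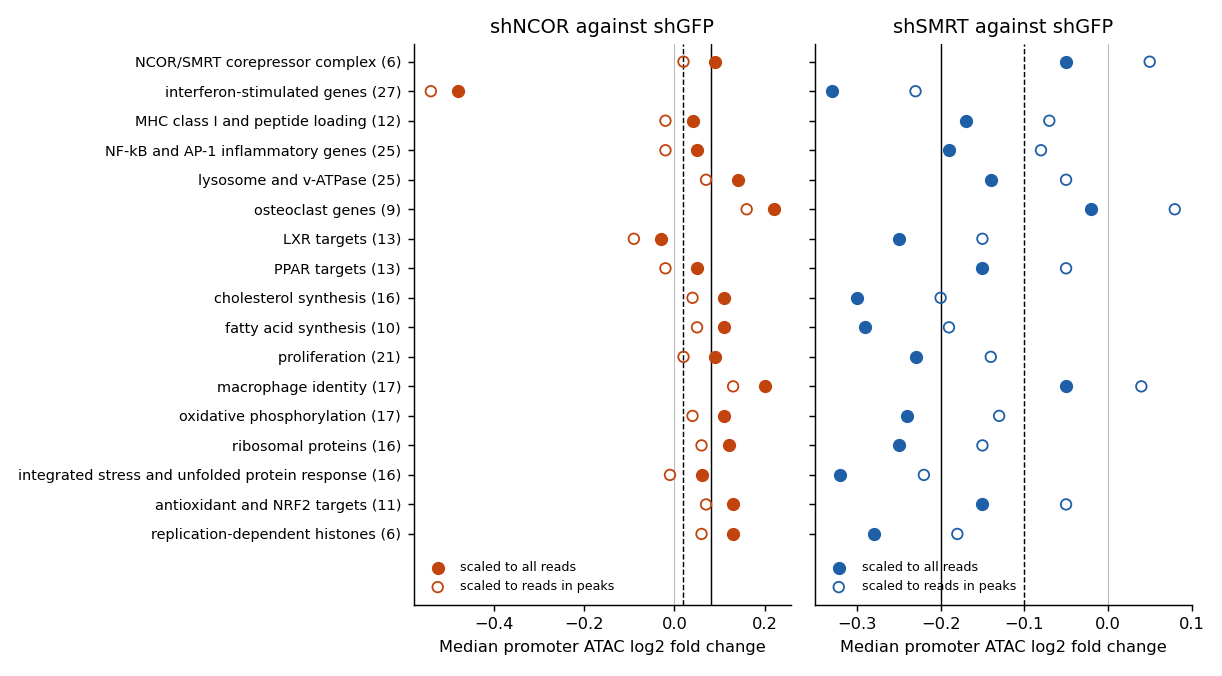
Median promoter ATAC log2 fold change (x axis) of each gene list with at least 5 tested promoter peaks, whose number stands in brackets, in shNCOR (left) and shSMRT (right) against shGFP. Filled circles are at the deposited scaling and open circles at scaling to reads in peaks, with the median of all promoters as a solid and a dashed black line. The x axes differ between panels. Interferon-stimulated genes lie farthest left in both panels, at -0.48 and -0.33.

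Beyond the interferon element, motif letters differed between groups of called promoters as follows. The AP-1 letters TGANTCA were in 16 of 78 windows at promoters raised in shSMRT (20.5%) and in 10 of 72 lowered in shNCOR (13.9%), against 5.15% of all 6499. The GC box GGGCGG was in 80.7% of windows at promoters lowered in shSMRT and in 48.7% at those raised, against 70.7% of all. The NRF1 core GCATGCG was in 0 of 72 windows lowered in shNCOR and 1 of 78 raised in shSMRT, against 7.12% of all. The nuclear receptor half-site AGGTCA was in 14 of 72 windows lowered in shNCOR (19.4%) and 26 of 196 raised (13.3%), against 10.4% of all. In all 32851 windows the shares were 7.81% for AP-1, 35.7% for the GC box, 3.58% for NRF1 and 16.3% for the half-site. Letters in a window are not a bound site, and levels differ between these groups of promoters. Windows were at hand for 77.4% of the peaks lowered in shSMRT and 62.4% of those raised, and for 76% of those raised in shNCOR. Whether level, base composition or the choice of peaks with a window accounts for the shares was not tested.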

How the data were processed

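ATAC-seq and RNA-seq libraries of RAW264.7 cells, 3 for each hairpin and assay, were grouped by their titles. One ATAC protocol label speaks of wild-type cells where the titles name hairpins, and the titles were followed. The ATAC table holds scaled reads per peak of a merged list, annotated with HOMER on mm10 and scaled by the authors to 10 M reads per library, per the file headers, written with decimal commas. RNA values are RPKM over exons, both strands counted together, per the file headers, so a gene and its antisense partner cannot be told apart. MACS2, DESeq2, Bowtie2 and HISAT2 stand, without roles, in the submitters' processing notes. The ATAC peak caller and any shift for the transposase cut are not given in the sources used here. A read of the ATAC libraries is a whole multiple of a fixed value, which gave their depth.

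Peaks of at least 10 units in 3 of 9 libraries (51469) and genes of at least 1 RPKM in 3 of 9 (10789) were fitted with limma 3.58.1 (R 4.3.3, with trend) on log2(value + 5) and log2(RPKM + 1), all 3 groups in 1 fit, p-values adjusted by Benjamini-Hochberg over the whole table. Such fold changes understate those of low values. The planned edgeR test was not run because the deposited unit is not counts, and limma voom on the recovered reads was added after the data were seen. On simulated data for shNCOR against shGFP, 7.46, 73.1 and 98.5% of promoter peaks changed 1.5-, 2- and 3-fold were recovered. There, 200 promoter peaks were changed among 51469, at a fixed dispersion of 0.02. In the data themselves 2357 peaks were called higher and 2057 lower in shNCOR, so a smaller unadjusted p was needed in the simulation. The rates hold for that setting and do not give the sensitivity in the data. Named promoters, predicted genes left out, were the 10 largest called differences in each direction against shGFP whose groups do not overlap, 5 in each direction between knockdowns, the 5 genes with the largest smaller-of-both difference called the same way or in opposite ways in both assays, up to 2 called members of a list in each direction, the corepressor genes and the 5 strongest promoters. The members and the 20 gene lists were chosen with earlier results of these data known. Markers of lymphocytes, fibroblasts and epithelia had no promoter peak. The RNA of the SMRT gene is not reported here, and the samples of other assays were not used here.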

Additional observations from a re-analysis of the deposited data

How the results depend on the processing

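Counts of called promoter peaks depended on scaling. In shNCOR against shGFP, scaling to reads in peaks gave 137 higher and 173 lower, quantile normalization 112 and 148, and voom 156 and 163. In shSMRT against shGFP these gave 177 and 783, 226 and 688, and 217 and 1032, and in shSMRT against shNCOR 207 and 1010, 193 and 469, and 171 and 912. The cause was not tested. Asking for a log2 fold change of at least 0.5 left 68 higher in shNCOR, and 438 lower in shSMRT against shGFP and 635 against shNCOR. Leaving out 1 library gave 96 to 236 higher and 64 to 111 lower in shNCOR, 81 to 98 higher and 767 to 1808 lower in shSMRT, and 88 to 126 higher and 2632 to 3550 lower in shSMRT against shNCOR. The difference in promoter share then ranged from 0.343 to 1.16, from -2.49 to -1.81 and from -3.42 to -2.49 points. Same-direction genes ranged from 76 to 158 in shNCOR and 317 to 750 in shSMRT, and opposite ones from 5 to 29 and 128 to 308, among them, for shNCOR, 99 same and 10 opposite without ATAC library shNCOR replicate 2, 89 and 10 without shGFP replicate 3 and 14 opposite without shNCOR replicate 1, and for shSMRT 453 same without shSMRT replicate 1 and 449 and 172 without shGFP replicate 3. Scaled to reads in peaks, shNCOR had 12 opposite genes and shSMRT 352 same and 120 opposite. After quantile normalization these were 7, 321 and 109.

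The replicate numbers showed no clear pairing of the samples. Correlations of deviations between libraries of the same number were -0.04 to 0.02 in ATAC-seq and -0.05 to 0.08 in RNA-seq. Between different numbers they were -0.04 to 0.05 and -0.10 to 0.07. Of 18 cases in each assay, 3 and 8 correlated best with their own number. Such correlations cannot exclude that libraries were paired. With the replicate block, 204 promoter peaks were higher and 123 lower in shNCOR, 120 and 1735 in shSMRT, and 136 and 3679 in shSMRT against shNCOR, and 140 and 703 genes moved the same way and 16 and 268 opposite. Of 113 called results of named promoters, 34 lost the call under at least 1 alternative. Signs turned for uncalled promoters. Ncor1 ranged from -0.01 (without shNCOR replicate 1) to 0.11 in shNCOR. Bdh2 was at -0.06 in shSMRT after quantile normalization, -0.02 without shGFP replicate 2, -0.11 without shSMRT replicate 1, 0.23 without shSMRT replicate 2 and -0.05 without shSMRT replicate 3. Mxd4 was at -0.01 without shGFP replicate 2 and -0.02 without shSMRT replicate 3. The planned edgeR alternative was not run. At 6.06 to 10.84 M reads, 7.46% of simulated 1.5-fold differences over promoter peaks of all levels were recovered for shNCOR against shGFP. For shSMRT against shGFP it was 14.9%. Only 200 of 51469 peaks were changed there, fewer than were called in the data, so these rates do not give the sensitivity in the data. At strong promoters, smaller differences passed the test in the data.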
